A study of Mus musculus with 7 samples.

Results

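Synaptic adhesion molecules are proteins of the neuronal surface that meet across the synaptic cleft. Here 47 such genes, chosen by name, were found among the 32285 genes in the deposited files, and their unique molecular identifiers (UMIs) were followed across cell classes of the posterolateral cortical amygdala (plCoA), a cortical structure that receives direct input from the olfactory bulb. The list holds neurexins, neuroligins, contactin-associated proteins, contactins, LRRTMs, SLITRKs, FLRTs, teneurins, latrophilins, cerebellins, IL1RAPL receptors, LAR-type phosphatases and LRFN proteins, and all 47 symbols were matched.

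Nuclei came from the anterior (aplCoA) and the posterior (pplCoA) domain of the plCoA of C57BL6J male mice aged 8 weeks. All mice were wild type, single-housed and kept in sensory deprivation before sacrifice, and dissected tissue of several mice was pooled for each run. There were 3 biological replicates a domain, aplCoA replicate 1 was sequenced in 2 libraries that were summed, and no separate animals can be told apart within a pool. Total counts per library were 50812605 to 129624583 UMIs over 17443221 barcodes, and 46403 nuclei were kept (27354 from aplCoA and 19049 from pplCoA) at a median of 5157.5 to 6754 UMIs per nucleus by library. Any pair of the 7 libraries shared 4 to 30 barcodes, and 268 barcodes occurred in more than 1 library. The median mitochondrial percentage was 0.0240 to 0.0493 in aplCoA libraries and 0.00979 to 0.0165 in pplCoA libraries, without overlap, and its part in the results was not tested.

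Classes were named from marker genes, with the adhesion genes left out of the clustering, so that each name means clusters that resemble that class. There were 19670 glutamatergic and 4984 GABAergic nuclei, 9742 astrocytes, 3639 oligodendrocyte precursor cells (OPCs), 303 newly formed (NFOLs) and 1531 mature oligodendrocytes (MOLs), 2796 microglia, 1857 vascular leptomeningeal cells (VLMCs) and 1044 arachnoid barrier cells (ABCs). Slc17a7, the vesicular glutamate transporter of cortical neurons, lay at 182 to 271 counts per 1000000 UMIs (CPM) in glutamatergic and 5.49 to 13.9 CPM in GABAergic replicates. Gad1, a GABA-synthesising enzyme, lay at 262 to 337 CPM in GABAergic replicates. A CPM value is a share of the UMIs of all nuclei of a class in 1 replicate, and a change in it can come from other genes as well as from the gene itself.

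Neurexins sit mostly on the presynaptic side and bind neuroligins, LRRTMs and secreted cerebellins. Teneurins and FLRTs bind latrophilins, and LAR-type phosphatases such as Ptprd bind SLITRKs, IL1RAPL receptors and some LRFN proteins. Contactin-associated proteins are relatives of the neurexins that pair with contactins. Cntnap1 and Cntnap2 organise the membrane beside the nodes of Ranvier, and Cntnap4 is known from the terminals of interneurons. Different sets of these proteins are thought to help neurons choose partners and to set the properties of the contacts they form.

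Of the 47 genes, 42 were found in at least 10% of glutamatergic nuclei of a domain and 43 of GABAergic nuclei, and these could be tested between domains. Cbln1, Cbln2, Cbln4 and Slitrk6 fell under that share in both neuron types, and Cntn2 in glutamatergic neurons. Cbln1, a secreted cerebellin, had 36 UMIs in all glutamatergic nuclei. The 7 genes whose domain difference was not the same in the neuron types (described further on) are placed here on the mm10 (GRCm38) assembly. Cntnap4 (ENSMUSG00000031772) spans chr8:112570043-112882717 on the forward strand, and Tenm3 lies at chr8:48227682-48843951 on the reverse strand. Cntnap3 spans chr13:64736182-64903955 (reverse), Cntnap2 chr6:45059357-47304213 (forward), Lrrtm4 chr6:80018877-80810143 (forward), Cntn5 chr9:9660891-10904775 (reverse) and Lrrtm3 chr10:63928472-64090277 (reverse). UMIs of exons and introns were counted together, so each value covers the whole span of a gene.

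RefSeq promoter windows of GRCm38.p6, 250 bases before to 50 after a start, were at hand for 34 of the 47 genes. Of the 7 genes with unequal domain differences, 6 had a window, 9 windows in all, and Cntnap4 had none. The windows below belong to the genes that moved furthest in either direction among those 6. For Tenm3 (chr8:48674641-48674940, reverse strand, a start inside the gene's full span) and Cntnap3 (chr13:64903839-64904138, reverse) the domain change was more positive in glutamatergic than in GABAergic neurons, and for Lrrtm4 (chr6:80019393-80019692, forward) it was more negative. Capitals mark the core of the Meis homeodomain motif, TGACAG on either strand.
Tenm3: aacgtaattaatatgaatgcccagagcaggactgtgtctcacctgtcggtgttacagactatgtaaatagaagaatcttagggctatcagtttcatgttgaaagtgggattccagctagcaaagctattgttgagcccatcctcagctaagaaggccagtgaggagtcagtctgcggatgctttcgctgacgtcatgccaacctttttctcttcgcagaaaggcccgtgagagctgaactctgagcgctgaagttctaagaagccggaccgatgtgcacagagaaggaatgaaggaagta
Cntnap3: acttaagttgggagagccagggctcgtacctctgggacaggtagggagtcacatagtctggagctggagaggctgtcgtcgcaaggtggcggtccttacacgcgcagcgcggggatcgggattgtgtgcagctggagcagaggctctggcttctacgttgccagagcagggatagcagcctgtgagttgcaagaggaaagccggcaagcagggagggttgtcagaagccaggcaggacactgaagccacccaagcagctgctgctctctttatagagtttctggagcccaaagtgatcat
Lrrtm4: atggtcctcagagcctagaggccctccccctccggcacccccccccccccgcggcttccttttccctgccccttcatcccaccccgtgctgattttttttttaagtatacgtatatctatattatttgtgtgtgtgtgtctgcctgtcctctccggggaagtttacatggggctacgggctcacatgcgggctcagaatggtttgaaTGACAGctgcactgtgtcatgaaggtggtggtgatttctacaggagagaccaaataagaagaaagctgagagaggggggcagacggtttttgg

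The Meis motif occurred in 5 of these 9 windows, of which 2 overlap on Cntn5 and share a match, in 12 of the 48 windows of all adhesion genes, and in 19.1% of the 32544 distinct windows searched. Of the 2 Lrrtm4 windows, that above held a match and the other none. The Ebf motif, CCCNNGGG, occurred in 0 of the 9 windows and in 13.8% of those searched. These motifs were looked for because Meis1 and Ebf1 lead clusters of glutamatergic neurons described further on, and a match of letters is no evidence of binding.

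The neuron types differed widely in several of these genes. Cntnap4, Cntnap3, Cntnap2 and Cntn5 were over 2-fold higher in GABAergic than in glutamatergic neurons in 6 of 6 replicates, and Ptprd and Cntnap5a were over 2-fold higher in glutamatergic neurons in 6 of 6. Over all 9720 genes with the same share of nuclei, 4.63% were over 2-fold higher in GABAergic neurons in every replicate and 4.62% in glutamatergic neurons, against 4 and 2 of 42 adhesion genes. Classes were made from the same nuclei, so these levels are a description and carry no test.

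Cntnap4 lay between 9.23 and 37.1 CPM in glutamatergic replicates (median 24.1) and between 361 and 488 CPM in GABAergic replicates (median 430.0). The mean was 18.4 times higher in GABAergic neurons, with a log2 ratio of glutamatergic to GABAergic levels of -4.35 ± 1.00 (SD, n = 6). Cntnap3, a close relative of Cntnap4, ranged from 3.72 to 22.1 CPM (median 14.8) and from 178 to 239.5 CPM (median 214), a log2 ratio of -4.08 ± 1.05 (SD, n = 6). In neither gene did any glutamatergic replicate come near a GABAergic one. The ratio was wider in pplCoA than in aplCoA, with means of -5.21 and -3.48 for Cntnap4 and -4.88 and -3.27 for Cntnap3.

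Cntnap2, which anchors potassium channels along axons, ranged from 1127 to 2180 CPM (median 1563) in glutamatergic and from 7255 to 9021 CPM (median 7779) in GABAergic replicates. Its log2 ratio was -2.34 ± 0.34 (SD, n = 6). Cntn5, a contactin held to the membrane by a lipid anchor, ranged from 1039 to 1663 CPM (median 1445) and from 3426 to 4131 CPM (median 3512), with a log2 ratio of -1.41 ± 0.37 (SD, n = 6). For Tenm3, a teneurin known for wiring topographic maps, the ranges were 85.8 to 249 CPM (median 143) and 472 to 593 CPM (median 575). All 6 ratios of Tenm3 lay below 0 (mean -1.93 ± 0.75, SD), yet the gene missed the 2-fold limit in aplCoA replicate 1. Cbln2, another secreted cerebellin, was scarce, with 0.608 to 2.54 CPM (median 1.45) in glutamatergic and 7.54 to 12.3 CPM (median 10.6) in GABAergic replicates, a log2 ratio of -2.17 ± 0.32 (SD, n = 6) after 1 CPM was added.

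In the other direction, Ptprd ranged from 8382 to 11340 CPM (median 9986) in glutamatergic and from 1782 to 2051 CPM (median 1914) in GABAergic replicates, a log2 ratio of 2.36 ± 0.18 (SD, n = 6). Cntnap5a ranged from 1855 to 2105 CPM (median 1967) and from 698 to 799 CPM (median 780.5), a ratio of 1.36 ± 0.13. Unlike Cntnap3 and Cntnap4, this member of the family was thus higher in glutamatergic neurons in every replicate. Cntn3, a contactin, lay at 644 to 935 CPM (median 763) and 325 to 394 CPM (median 358), a ratio of 1.10 ± 0.18. Lrrtm4, a postsynaptic receptor for heparan sulphate proteoglycans and neurexins, lay at 3982 to 6723 CPM (median 4734) and 2125 to 2718 CPM (median 2406), a ratio of 1.02 ± 0.38. For Nlgn1, the neuroligin of excitatory synapses, the ranges were 4092 to 4840 CPM (median 4373) and 2039 to 2456 CPM (median 2320), with a ratio of 0.95 ± 0.11. Il1rapl1, a partner of Ptprd, followed with 4118 to 5317 CPM (median 4763) against 2606 to 3467 CPM (median 2808), a ratio of 0.69 ± 0.12. No range of these 6 genes overlapped between the neuron types.

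Over the 42 genes the median log2 ratio was -0.21, beside -0.18 over all genes. TMM scaling moved the median of all genes by 0.16, to -0.02. It left 5 in place of 6 genes past the 2-fold limit, with no share of all genes beside that count. The large values stand well clear of that shift, while ratios near 0 do not.

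**Figure D1:**
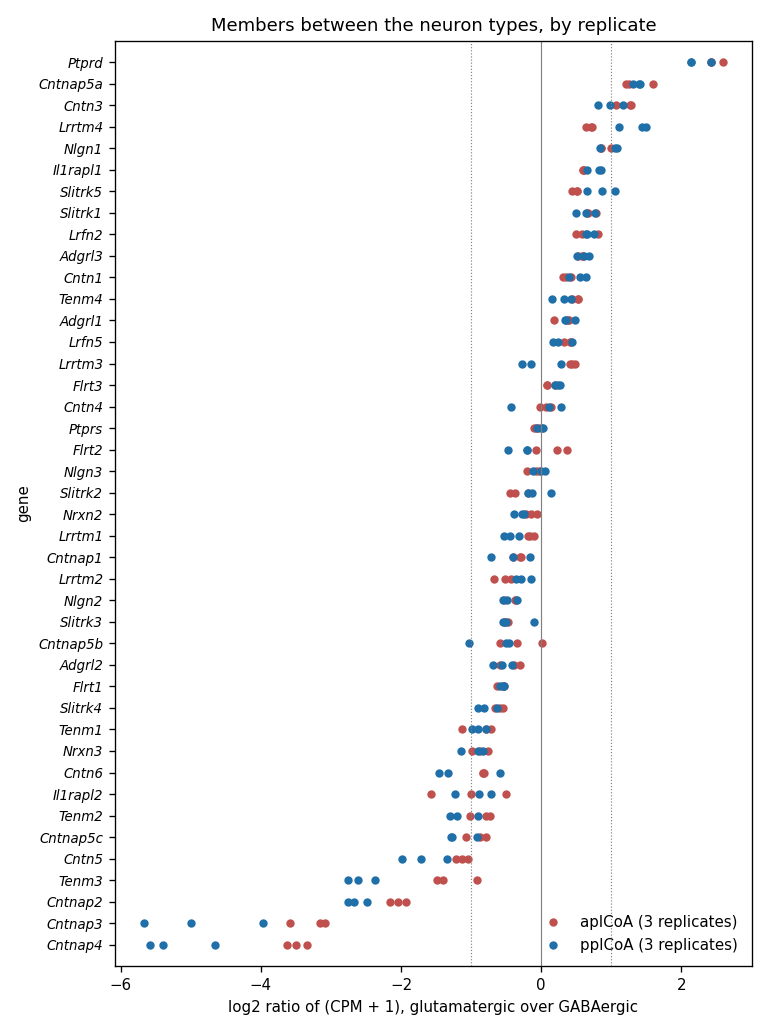
The log2 ratio of glutamatergic to GABAergic CPM (1 CPM added to each) is plotted for 42 genes, a point for each of the 6 replicates, with dotted lines at 2-fold either way. Cntnap4 and Cntnap3 lie furthest to the GABAergic side, with means of -4.35 and -4.08, and Ptprd furthest to the glutamatergic side at 2.36.

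Traces of RNA from the other neuron type were measured in each class. The 4 GABAergic markers summed to 6.94 to 14.4 CPM in glutamatergic aplCoA replicates and 3.90 to 8.90 CPM in pplCoA replicates, and none was at 0 throughout. Per UMI of Gad2, another GABA-synthesising enzyme, Cntnap4 had 0.978 to 1.46 UMIs in GABAergic neurons and 5.33 to 12.7 in glutamatergic neurons. Cntnap3 had 0.461 to 0.751 and 2.89 to 6.52. In microglia, which should lack both genes, Cntnap4 averaged 1.28 CPM (0 to 5.04) and Cntnap3 1.17 CPM. In every replicate, both genes had more UMIs per Gad2 UMI in glutamatergic than in GABAergic neurons. Gad2 helped to name the classes, and a glutamatergic sub-cluster with Gad2 among its leading genes was set aside, which lowers Gad2 in that class. Single GABAergic clusters also departed from their class, as in one led by Gm20658 (Gad2 114, Cntnap4 557 and Cntnap3 356 CPM). The source of the glutamatergic UMIs was not tested.

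By share of UMIs, many adhesion genes were at their highest outside neurons. The median nucleus of a replicate held 10831.5 to 14622 UMIs in glutamatergic neurons and 3403 to 4769 in OPCs, so an order by UMIs per nucleus can differ. Nlgn1, for one, had 1155520 UMIs in 19670 glutamatergic nuclei and 83966 in 3639 OPCs, and per nucleus its order would turn. By the mean of 6 replicates, a neuron type was the highest of 9 classes for 23 of the 47 genes. These were 10 in glutamatergic and 13 in GABAergic neurons, and OPCs were highest for another 13. No share of all genes is given beside these counts, which describe the list and do not set it apart from other genes. Among the 23, Adgrl3 was at 2037 ± 92.6 CPM (SD, n = 6) in glutamatergic neurons and 2029 ± 101.6 CPM in OPCs, and Flrt3 at 138.7 ± 26.9 CPM in glutamatergic and 121.6 ± 17.95 CPM in GABAergic neurons, leads within the spread of replicates. Replicates of the highest and the next class also overlapped for Cbln4, Cntnap5b and Lrrtm4. The 13 genes highest in OPCs were Nrxn2, Nlgn1, Nlgn3, Cntn1, Cntn4, Cntn6, Lrrtm1, Lrrtm3, Slitrk1, Slitrk2, Slitrk3, Slitrk5 and Ptprs. For some of these the lead was within the spread of replicates. Slitrk2, a postsynaptic partner of LAR-type phosphatases, was at 75.1 ± 11.8 CPM (SD, n = 6) in OPCs and 72.6 ± 8.5 CPM in astrocytes, and Slitrk5 at 37.7 ± 6.4 CPM in OPCs and 36.3 ± 5.5 CPM in glutamatergic neurons. Nlgn1 lay at 5424 ± 303 CPM (SD, n = 6) in OPCs and Nrxn2, a presynaptic neurexin, at 699 ± 44.6 CPM (SD, n = 6). Cntn4, a contactin of developing olfactory axons, was at 1487 ± 124 CPM (SD, n = 6).

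Cntn2, an adhesion molecule of the juxtaparanode, was at 206 ± 30.4 CPM (SD, n = 6) in MOLs, with replicates from 148 to 228 CPM, and averaged 5.45 CPM in glutamatergic neurons. Tenm3 was highest in astrocytes, at 1033 ± 92.6 CPM (SD, n = 6) and 867 to 1114 CPM over the replicates, which lay above every GABAergic replicate. Flrt2, a ligand of Unc5 receptors and latrophilins, was highest in VLMCs, at 514 ± 46.5 CPM (SD, n = 6). Adgrl2 (latrophilin 2) was highest in ABCs, at 683 ± 90.7 CPM (SD, n = 6). Adgrl1 was highest in astrocytes, at 135.5 ± 10.1 CPM (SD, n = 6). For Nlgn2 and Flrt1, VLMCs (82.2 ± 8.2 and 111 ± 27.4 CPM, SD, n = 6) and OPCs (81.0 ± 5.9 and 101 ± 21.3 CPM) differed by less than that spread. Lrrtm2 was level in MOLs (27.1 CPM), NFOLs (25.9 CPM) and OPCs (24.6 CPM), and Slitrk6 and Cbln1 were too scarce for an order of classes. No gene of the list was highest in microglia.

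**Figure D2:**
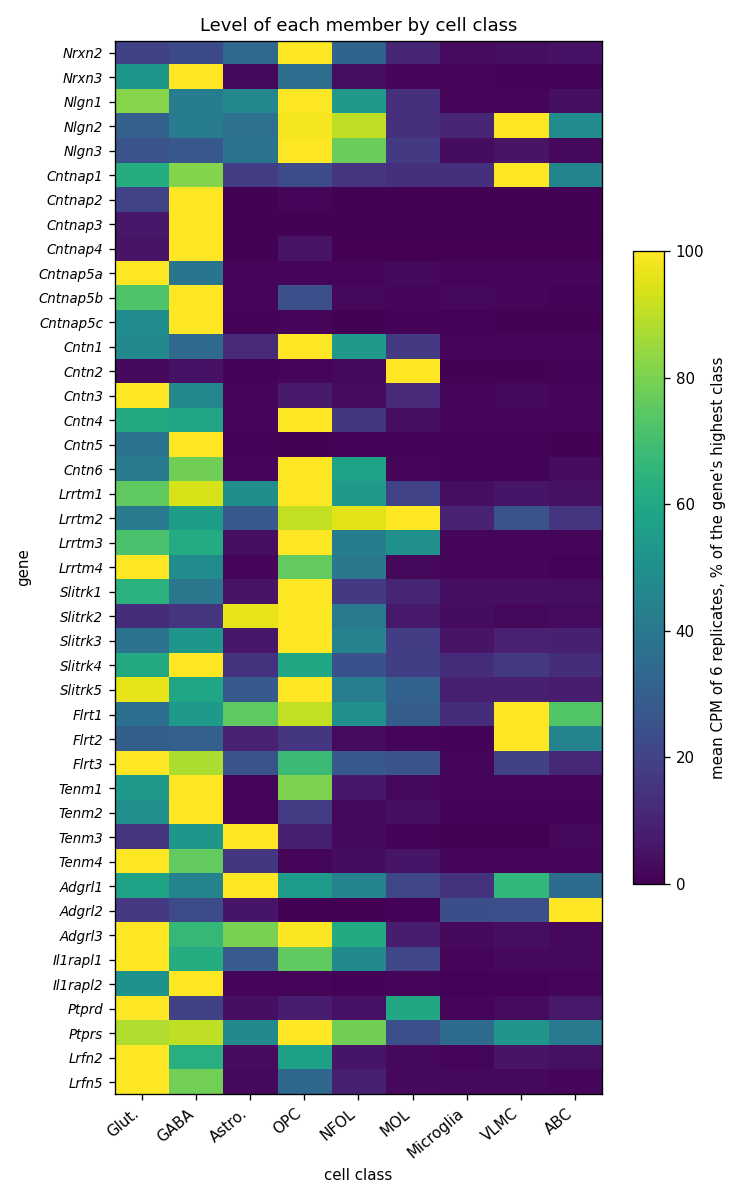
For the 43 genes that reached 10 CPM in a class, colour gives the mean CPM of each class (columns) as a percentage of that gene's highest class. Columns are comparable within a row only, and the row of Tenm3 peaks in astrocytes, that of Cntn2 in MOLs and that of Nrxn2 in OPCs.

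The study set out to learn whether the domains of the plCoA differ in their molecular cell types, and for the adhesion genes this asks which of them change between aplCoA and pplCoA within a neuron type. In glutamatergic neurons, Cntnap4 and Tenm3 were over 2-fold higher in aplCoA by their means, Cntnap2, Cntnap1, Flrt2 and Adgrl2 were higher by smaller steps, and Lrrtm4, Flrt3 and Lrfn2 were lower. These 9 of 42 tested genes passed an adjusted p of 0.05 (edgeR's quasi-likelihood test, Benjamini-Hochberg over all genes tested), 6 higher and 3 lower. Over all 9719 genes tested 20.5% passed, 9.9% higher and 10.6% lower, so the share of adhesion genes that passed was near that of all genes. Their median log2 change was 0.05, beside 0.00 over all genes.

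Cntnap4 stood at 34.7, 31.4 and 37.1 CPM in glutamatergic neurons of aplCoA replicates 1, 2 and 3 and at 16.7, 9.30 and 9.23 CPM in those of pplCoA. The domains did not overlap, with all aplCoA values above those of pplCoA. The log2 change was 1.46 (SE 0.21, adjusted p = 0.00603, edgeR). Tenm3 stood at 249, 172 and 221 CPM in aplCoA and at 113, 91.2 and 85.8 CPM in pplCoA, again without overlap, with a log2 change of 1.06 (SE 0.14, adjusted p = 0.00526, edgeR). In both genes pplCoA replicate 1 was the highest of its domain.

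Cntnap2 read 1903, 2180 and 1732 CPM in aplCoA and 1395, 1323 and 1127 CPM in pplCoA, a log2 change of 0.52 (SE 0.11, adjusted p = 0.0160, edgeR). Cntnap1, the paranodal member of the family, read 16.5, 15.6 and 17 CPM and 13.5, 12.3 and 10.4 CPM, a change of 0.36 (SE 0.10, adjusted p = 0.0429). The replicates of the domains were apart in both genes. Cntnap3 did not pass, at 22.1, 15.7 and 19.1 CPM in aplCoA and 13.8, 6.2 and 3.72 CPM in pplCoA (log2 change 1.15, SE 0.38, adjusted p = 0.0644), although no replicate overlapped. The wide spread within pplCoA, again with replicate 1 on top, goes with the large SE. Of Cntnap5a, Cntnap5b and Cntnap5c, paralogs of each other, none passed (log2 changes -0.11, 0.49 and -0.13).

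Flrt2 stood at 174.9, 214 and 163 CPM in aplCoA and 139.8, 130.1 and 109.8 CPM in pplCoA, a log2 change of 0.46 (SE 0.12, adjusted p = 0.0324, edgeR). Flrt3, its relative, went the other way, with 119, 115 and 117 CPM in aplCoA and 139, 166 and 176 CPM in pplCoA (log2 change -0.54, SE 0.10, adjusted p = 0.00815). Neither gene overlapped between domains, and the third FLRT, Flrt1, did not pass (-0.27, adjusted p = 0.0953). Adgrl2, which FLRTs and teneurins bind, stood at 129, 129 and 118 CPM in aplCoA and 94.2, 106 and 96.4 CPM in pplCoA (log2 change 0.26, SE 0.07, adjusted p = 0.0420).

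Lrrtm4 stood at 3982, 4248 and 4146 CPM in aplCoA and 5221, 6723 and 5750 CPM in pplCoA, a log2 change of -0.60 (SE 0.11, adjusted p = 0.00977, edgeR). Lrfn2, a postsynaptic protein that binds NMDA receptors and PSD-95, stood at 239.9, 225 and 225 CPM and at 277, 340.4 and 308 CPM, a change of -0.51 (SE 0.09, adjusted p = 0.00788). All aplCoA replicates of both genes were below all pplCoA replicates. No neurexin, neuroligin, contactin, SLITRK, IL1RAPL receptor or LAR-type phosphatase passed in glutamatergic neurons. Among all 42 genes, 18 had replicates that did not overlap between domains, 14 higher and 4 lower in aplCoA, where 42.7% of all genes did not overlap.

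Cntnap4, Tenm3, Lrrtm4, Flrt3 and Lrfn2 passed whichever replicate was left out. The count of 9 fell to 5 without pplCoA replicate 2 or pplCoA replicate 3, where Cntnap1, Cntnap2 (adjusted p = 0.0553 and 0.0640, edgeR), Flrt2 and Adgrl2 were lost, and rose to 16 without pplCoA replicate 1. The share of all genes that passed moved likewise, to 8.30%, 10.6% and 24.4%. Without aplCoA replicate 1 or 2, Cntnap1, Flrt2 and Adgrl2 did not pass, nor did Cntnap1 without aplCoA replicate 3 or Adgrl2 without pplCoA replicate 1. Cntnap1 and Adgrl2 each no longer passed under 10 of 18 alternatives in all. Markers of VLMCs, the class in which Flrt2 was highest, summed to 4.03 to 6.85 CPM in aplCoA and 8.29 to 20.4 CPM in pplCoA glutamatergic neurons, the direction opposite to that of Flrt2. Endothelial markers ran the other way, at 2.87 to 3.45 CPM in aplCoA and 2.665 to 2.86 CPM in pplCoA, the direction of the 6 higher genes. In each of these lists 2 markers were under 1 CPM. Dcn and Col1a1 of the VLMC list were also leading genes of glutamatergic clusters led by Moxd1 and by Mybpc1. Of their nuclei 1025 of 1056 and 1307 of 1972 came from pplCoA, so the VLMC sum need not be RNA of VLMCs alone. The part of both lists in the results was not tested.

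In GABAergic neurons every adhesion gene that passed was lower in aplCoA: Tenm2, Cntnap5c, Cntnap3, Nrxn3, Lrrtm1, Flrt3 and Lrfn2. These were 7 of 43 tested genes with 0 higher (edgeR's quasi-likelihood test), where 9.9% of all 8733 genes passed, 4.37% higher and 5.53% lower. At an unadjusted p under 0.05 the list held 16 genes, and all genes tested held 1924. Their median log2 change was -0.02, beside 0.00 over all genes.

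Tenm2, a teneurin that binds latrophilins, stood at 2746, 2890 and 3068 CPM in aplCoA and 3493, 3813 and 4340 CPM in pplCoA, a log2 change of -0.48 (SE 0.09, adjusted p = 0.00568, edgeR). Cntnap5c stood at 745, 757 and 786 CPM and at 892, 972 and 967 CPM (log2 change -0.36, SE 0.07, adjusted p = 0.00625). Cntnap3 stood at 194, 199.7 and 178 CPM and at 231, 228 and 239.5 CPM (log2 change -0.35, SE 0.07, adjusted p = 0.00905). No replicate of these 3 genes overlapped between the domains, and all 3 passed whichever replicate was left out.

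Flrt3 stood at 112, 100.1 and 110.0 CPM in aplCoA and 121, 140.4 and 146 CPM in pplCoA (log2 change -0.38, SE 0.09, adjusted p = 0.0141, edgeR). Lrfn2 stood at 159, 128 and 159 CPM and at 175, 202 and 198 CPM (log2 change -0.41, SE 0.09, adjusted p = 0.0127). These 2 genes passed in the same direction in both neuron types. Nrxn3, a presynaptic neurexin, stood at 7776, 8069 and 8582 CPM and at 9160, 9298 and 9648 CPM (log2 change -0.26, SE 0.08, adjusted p = 0.0455). Lrrtm1, a postsynaptic partner of neurexins, stood at 54.6, 50.6 and 64.8 CPM and at 64.7, 86.4 and 86.3 CPM (log2 change -0.52, SE 0.12, adjusted p = 0.0170), and aplCoA replicate 3 and pplCoA replicate 1 were level. In 20 of 43 genes the replicates did not overlap, 10 in each direction, where 28.0% of all genes did not.

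Cntnap4 missed the threshold in GABAergic neurons. It stood at 361, 398 and 428 CPM in aplCoA and 444, 432 and 488 CPM in pplCoA, so that every aplCoA replicate was below every pplCoA replicate, with a log2 change of -0.26 (SE 0.08, adjusted p = 0.0660, edgeR). It passed when genes in few nuclei were also tested (adjusted p = 0.0297), without aplCoA replicate 3 (0.0371) and with nuclei assigned by marker UMIs (0.0393), 3 of 17 alternatives.

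The GABAergic count fell to 3 without aplCoA replicate 1, aplCoA replicate 2 or pplCoA replicate 2 and to 4 without pplCoA replicate 3, where 2.79%, 5.42%, 3.33% and 7.97% of all genes passed. Nrxn3 was lost whichever replicate was left out (adjusted p = 0.0610 to 0.194, edgeR), and under 14 of 17 alternatives in all. Lrrtm1 and Flrt3 were lost without each of those 4, and Lrfn2 without each of the first 3. The 4 GABAergic markers themselves summed to 1244 to 1294 CPM in aplCoA and 1076 to 1091 CPM in pplCoA GABAergic neurons, astrocyte markers to 115 to 127 CPM and 99.0 to 114 CPM, and OPC markers to 34.6 to 39.2 CPM and 30.4 to 34.6 CPM. Macrophage markers summed to 1.88 to 4.63 CPM and 1.04 to 1.6 CPM, and NFOL markers, which moved in the direction of the 7 genes, to 199.7 to 219 CPM and 222 to 239 CPM. The part of these shifts in the results was not tested.

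**Figure D3:**
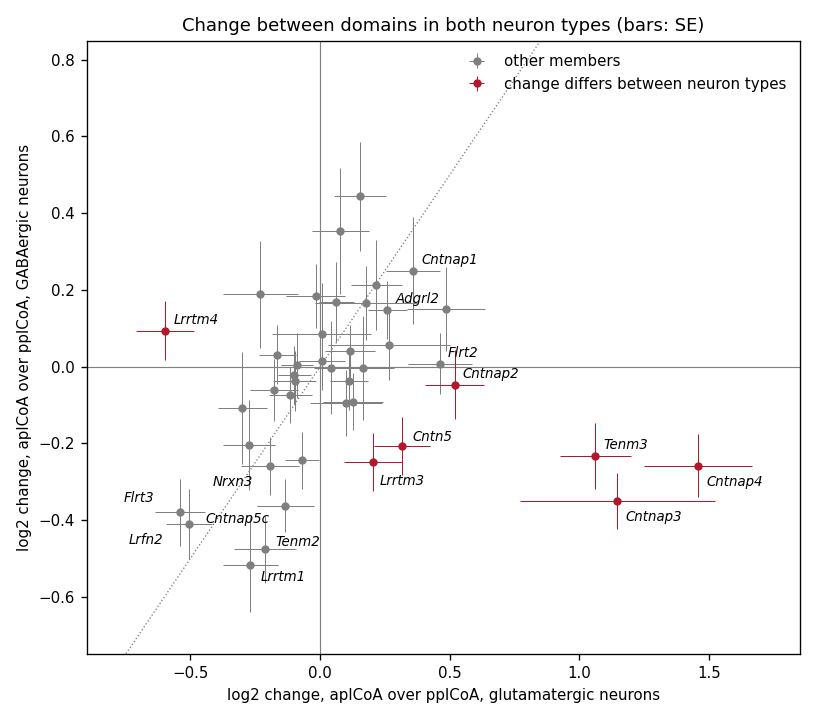
Each of 42 genes is placed by its log2 change (aplCoA over pplCoA) in glutamatergic neurons on the x axis and in GABAergic neurons on the y axis, with SE bars derived from edgeR's F statistic. Cntnap4, Cntnap3 and Tenm3 lie at the lower right, near 1.46 and -0.26, 1.15 and -0.35, and 1.06 and -0.23, while Lrrtm4 lies at the left, near -0.60 and 0.09.

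The comparison of the neuron types with each other asks whether a gene's domain difference was the same in both. For Cntnap4, Tenm3, Cntnap3, Cntnap2, Cntn5 and Lrrtm3 the log2 change was more positive in glutamatergic than in GABAergic neurons, and for Lrrtm4 it was more negative. These 7 of 42 genes passed the test of the difference itself (edgeR's quasi-likelihood test with the tissue pool as a term), where 5.06% of all 8415 genes passed. In all 7 the changes had opposite signs in the neuron types, as in 73.0% of all genes that passed this test. Among tested genes as a whole, whether or not they passed, 16 of 42 adhesion genes (38.1%) and 30.7% of all genes had opposite signs. No adhesion gene passed the domain test in both neuron types in opposite directions.

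Cntnap4 had the largest difference between the changes, 1.76 log2 units (SE 0.20, adjusted p = 0.00198, edgeR), from 1.46 in glutamatergic and -0.26 in GABAergic neurons. Tenm3 had a difference of 1.32 log2 units (SE 0.14, adjusted p = 0.00174), from 1.06 and -0.23. In GABAergic neurons Tenm3 stood at 472, 485 and 585 CPM in aplCoA and 593, 566 and 583 CPM in pplCoA, where aplCoA replicate 3 fell within the pplCoA range (adjusted p = 0.109). The positive change of Tenm3 was therefore seen in glutamatergic neurons, and its GABAergic change did not pass.

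Cntnap3 had the second largest difference, 1.57 log2 units (SE 0.34, adjusted p = 0.0305, edgeR), from 1.15 and -0.35, and here it was the GABAergic change that passed by itself. Cntnap2 had a difference of 0.59 (SE 0.10, adjusted p = 0.00976). Its GABAergic replicates, 7255, 9021 and 7749 CPM in aplCoA and 7809, 8417 and 7654 CPM in pplCoA, overlapped, with a log2 change of -0.05 (adjusted p = 0.829).

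Lrrtm4 was the gene with a negative difference, -0.67 log2 units (SE 0.11, adjusted p = 0.0110, edgeR). Its GABAergic replicates stood at 2407, 2718 and 2542 CPM in aplCoA and 2405, 2381 and 2125 CPM in pplCoA, a log2 change of 0.09 (adjusted p = 0.550). The lowest GABAergic aplCoA value was level with the highest of pplCoA, whereas in glutamatergic neurons the domains were well apart.

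Cntn5 and Lrrtm3, a neurexin-binding receptor of excitatory synapses, passed the test of the difference and neither domain test. Cntn5 stood at 1499, 1565 and 1663 CPM in aplCoA and 1392, 1165 and 1039 CPM in pplCoA glutamatergic neurons, and at 3486, 3442 and 3426 CPM and 3537, 3830 and 4131 CPM in GABAergic neurons. Neither pair of groups overlapped, in opposite directions, and the difference was 0.54 log2 units (SE 0.13, adjusted p = 0.0479, edgeR). Lrrtm3 stood at 508, 525 and 585 CPM and at 523, 405 and 402 CPM in glutamatergic neurons, and at 375, 396 and 419 CPM and at 429, 489 and 443 CPM in GABAergic neurons. The glutamatergic groups overlapped and the GABAergic ones did not, and the difference was 0.47 log2 units (SE 0.12, adjusted p = 0.0493).

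The count of 7 fell to 2 without aplCoA replicate 1, pplCoA replicate 2 or pplCoA replicate 3, where Cntnap4 and Tenm3 stayed, and rose to 14 without pplCoA replicate 1. Of all genes 1.117%, 1.60%, 1.51% and 10.45% passed in these fits. Cntn5 and Lrrtm3 passed only without pplCoA replicate 1 among the 6 omissions, and Cntnap3 was lost without aplCoA replicate 1 or 3 or pplCoA replicate 2 or 3. Over 17 alternatives in all, the difference of Cntn5 no longer passed in 10 and that of Lrrtm3 in 12.

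**Figure D4:**
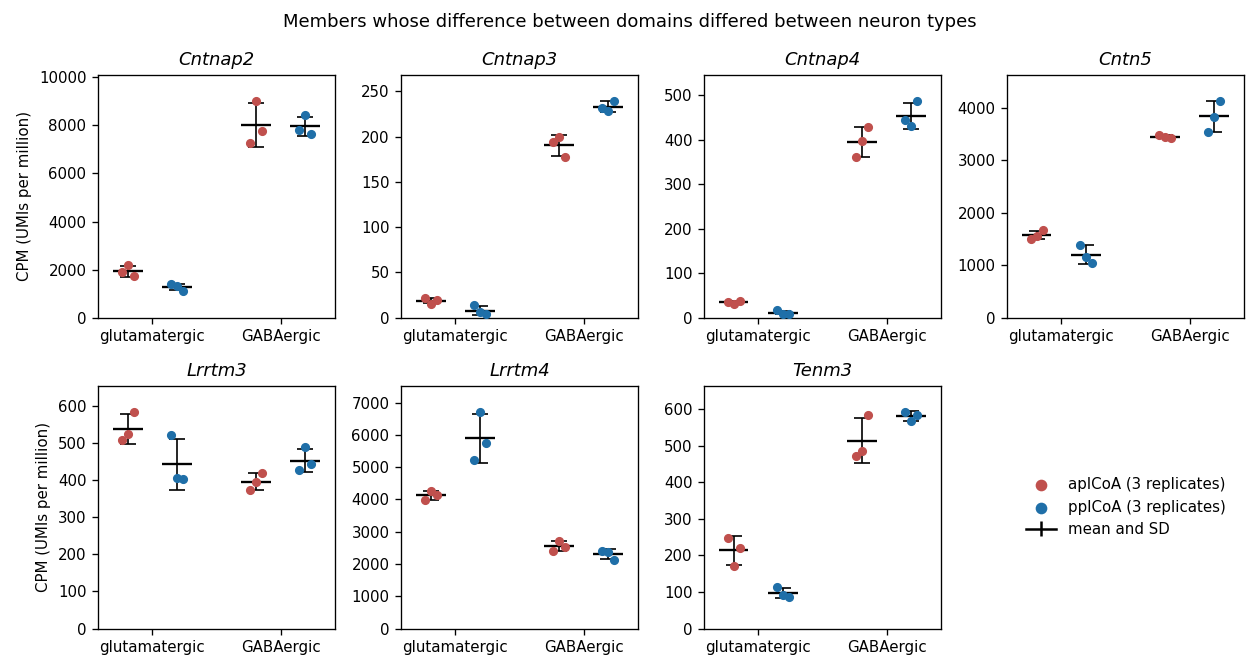
CPM of each replicate in glutamatergic and GABAergic neurons is plotted for the 7 genes with unequal domain differences, with the mean and SD (n = 3) of each domain. Cntnap4 lies at 31.4 to 37.1 CPM in aplCoA and 9.23 to 16.7 CPM in pplCoA in glutamatergic neurons, and at 361 to 428 CPM and 432 to 488 CPM in GABAergic neurons.

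Within glutamatergic neurons these genes were far from uniform. In 4 of 17 clusters, which held 4056 nuclei, Slc17a6, the second vesicular glutamate transporter, had more UMIs than Slc17a7. These clusters made up 25.7 to 36.2% of glutamatergic nuclei in aplCoA replicates and 0.858 to 9.76% in pplCoA replicates, so that the mix behind a glutamatergic sum was not the same in the domains. The clustering used genes that differ between domains, and these shares are given without a test. The clusters were led by Foxp2 and Meis1, by Vwa5b1 and Glra1, by Ebf1 and Pbx3, and by Trp73 and Ndnf. Pooled over these clusters Cntnap4 was at 101 CPM, against 11.1 CPM in all other glutamatergic clusters, and Tenm3 at 607 against 91.8 CPM. Cntnap3 was at 42.8 against 10.3 CPM and Cntnap2 at 2657 against 1453 CPM, while Lrrtm4 was the lower there, at 3593 against 5054 CPM.

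Cluster by cluster, Cntnap4 was at 284 CPM in the cluster led by Trp73 and Ndnf, 123.3 CPM in that led by Foxp2 and Meis1, 89.0 CPM in that led by Vwa5b1 and 54.3 CPM in that led by Ebf1. It was also above 50 CPM in 3 clusters with more Slc17a7 than Slc17a6, at 59.3 CPM in one led by Ebf2, 60.9 CPM in one led by Gm31698 (428 nuclei) and 88.0 CPM in one led by Sim1 (23 nuclei), the last 2 mostly from pplCoA. In 9 clusters it lay between 2.08 and 16.2 CPM. Tenm3 was at 551 to 859 CPM in 6 clusters, 3 of them among the 4 rich in Slc17a6, and at 88.0 CPM in the Trp73-led cluster. Cntnap3 had a pattern of its own, with 79.0 CPM in a Neurod6-led and 70.6 CPM in a Prox1-led cluster besides 74.1 CPM in the Ebf1-led cluster. Lrrtm4 ran from 1494 CPM in the cluster led by Trp73 to 7534 CPM in that led by Moxd1. Clusters are pooled over replicates, so these values are levels without an error. The study placed glutamatergic neurons marked by Sim1 or Etv1 in regions beside the plCoA, and held that those marked by Fign likely came from another such region. Sim1 leads a cluster here, Fign is a leading gene of a cluster led by Chrdl1, and Etv1 of nuclei led by Gm31698. These clusters stayed in the sums, and their part in the results was not tested.

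**Figure D5:**
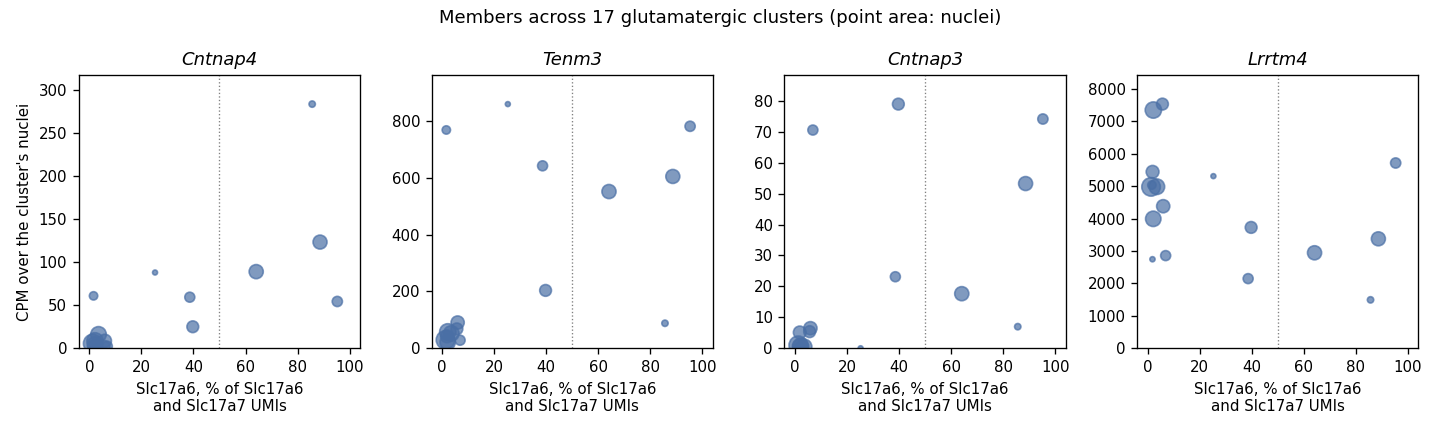
CPM of Cntnap4, Tenm3, Cntnap3 and Lrrtm4 in each of 17 glutamatergic clusters is plotted against the share of Slc17a6 among the UMIs of Slc17a6 and Slc17a7, with a dotted line at 50%. Cntnap4 reaches 284 CPM to the right of the line and most clusters on the left lie at or below 16.2 CPM.

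Slc17a6 itself stood at 61.1, 45.7 and 54.1 CPM in aplCoA and 19.0, 8.83 and 7.80 CPM in pplCoA glutamatergic neurons, so it moved between the domains in the same direction as Cntnap4 and Tenm3. Outside the 4 clusters Cntnap4 averaged 12.4 ± 2.42 CPM in aplCoA against 8.89 ± 1.53 CPM in pplCoA (SDs of 3 replicates), and Tenm3 at 94.1 ± 22.1 and 82.6 ± 6.99 CPM, with overlapping replicates in both genes. Cntnap3 was at 12.5 ± 1.68 and 7.18 ± 4.21 CPM, also overlapping, and Cntnap4 and Cntnap3 then fell under the 10% share and were not tested. In a fit without these clusters, added after the data were seen, Tenm3 had a log2 change of 0.14 (adjusted p = 0.601, edgeR) and Cntnap2 of 0.41 (adjusted p = 0.0892).

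The 4 genes that passed in that fit, where 10.4% of all genes did, were Lrrtm4 (-0.53, adjusted p = 0.0216, edgeR), Flrt2 (0.56, adjusted p = 0.0344), Flrt3 (-0.41, adjusted p = 0.0294) and Lrfn2 (-0.39, adjusted p = 0.0279). Of the differences between neuron types, where 0.657% of all genes passed, that of Lrrtm4 passed (-0.63, adjusted p = 0.0388) and that of Tenm3 did not (0.36, adjusted p = 0.441). The mix of the remaining clusters still differed between domains. A cluster led by Chrdl1 averaged 19.2% of glutamatergic nuclei in aplCoA and 0.962% in pplCoA, and that led by Moxd1 0.183% and 14.5%. In these clusters Flrt2 was at 266 and 133 CPM, Lrrtm4 at 3994 and 7534 CPM, Flrt3 at 122 and 186 CPM and Lrfn2 at 262 and 359 CPM. The part of that mix in the results of this fit was not tested. The mix of clusters could be held fixed over the 3 clusters with at least 20 nuclei in every replicate (5786 nuclei, among them clusters led by Gm34567 and by Prox1). None of the 4 Slc17a6-rich clusters was among them, and Cntnap4 lay at 2.3 to 8.6 CPM and Tenm3 at 28.4 to 57.7 CPM in these 3, so that this says nothing of the clusters where the 2 genes were high. There, 0 adhesion genes were over 2-fold apart between domains, with no share of all genes beside that count. At this mix Cntnap4 was at 8.52 ± 3.58 and 5.18 ± 1.46 CPM (SD, n = 3). Tenm3 differed by 0.24, Cntnap3 by -0.16 and Lrrtm4 by -0.25 on the log2 scale, and only for Lrrtm4 of these 4 genes did the domains not overlap. Of the other genes that passed in the fit above, the domains did not overlap for Flrt2 (0.26) and Flrt3 (-0.29) and overlapped for Lrfn2 (-0.23). The value of Cntnap3 turned with the clusters used, to 1.20 at halved and 0.105 at doubled cluster resolution. That of Tenm3 was 0.08 and 0.18 at those resolutions.

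GABAergic clusters differed as widely. Cntnap4 was at 832 CPM in a cluster led by Nxph2, and in the 2 clusters with the most Sst it was at 681 and 184 CPM. In the 2 clusters with the most Vip it was at 105 and 126 CPM, and in the 2 with the most Lamp5 at 51.6 and 874 CPM, so that clusters sharing a marker could lie far apart. A cluster led by Foxp2 and Meis2 had 3.1 CPM. Cntnap3 was at 524 CPM in the Nxph2-led cluster, at 421 and 164 CPM in those with the most Sst and at 1.22 and 187 CPM in those with the most Lamp5. The share of some GABAergic clusters also differed between domains. A cluster led by Crh had Nrxn3 at 12650 CPM, Cntnap5c at 1186 CPM and Tenm2 at 1996 CPM. It held 3.88 to 8.35% of GABAergic nuclei in aplCoA and 10.6 to 18.7% in pplCoA replicates. A cluster led by Ppp1r1c, with Nrxn3 at 11120 CPM, Cntnap5c at 1475 CPM and Tenm2 at 6383 CPM, went the other way, with 8.22 to 9.36% and 3.05 to 5.14%. Clusters led by 4930407I19Rik (Cntnap5c 2769 CPM, 0.597 to 2.51% and 3.75 to 6.63%) and Irf1 (1499 CPM, 0.597 to 2.85% and 3.54 to 5.56%) were richer in pplCoA. GABAergic clusters led by Fign, Gm10754 and Kcnmb1, with Cntnap5c at 372, 696 and 431 CPM, were richer in aplCoA, without overlap. Shares are given without a test, as for glutamatergic clusters, and their part in the GABAergic results was not tested.

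No adhesion gene passed between domains in the glial classes tested. In astrocytes 0 of 25 genes passed (edgeR's quasi-likelihood test, 3 at an unadjusted p under 0.05, 1 by DESeq2), where 0.638% of all 5019 genes did. In OPCs 0 of 34 passed (5 at an unadjusted p under 0.05, 0 by DESeq2), where 6.46% of all 6190 genes did. In MOLs 0 of 21 passed (1 unadjusted, 0 by DESeq2), where 2.35% of all 4602 genes did. Among all genes tested, 779, 1239 and 626 were under that unadjusted p in astrocytes, OPCs and MOLs (edgeR). The lowest adjusted p were 0.114 in astrocytes (Flrt2, log2 change 0.72, SE 0.19), 0.113 in OPCs (Lrrtm1, -0.38) and 0.321 in MOLs. Without pplCoA replicate 1 the counts were 2, 1 and 1, where 5.04%, 4.85% and 2.00% of all genes passed, and without aplCoA replicate 1 that in MOLs was 1, where 1.63% did. Tenm3, whose highest class was astrocytes, had a log2 change of -0.06 there (adjusted p = 0.802), beside 1.06 in glutamatergic neurons.

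Genes of the same pathways were read from a list of 48 partners: other adhesion genes, secreted and proteoglycan partners, and postsynaptic scaffolds. In glutamatergic neurons 9 of 42 tested partners passed (edgeR), 3 higher and 6 lower in aplCoA, and in GABAergic neurons 3 of 39 passed, all lower, beside 20.5% and 9.9% of all genes. Glypicans are heparan sulphate proteoglycans, some of which bind LRRTM4. Gpc5 was at 113 ± 13.7 and 46.8 ± 10.7 CPM (means with SDs of 3 replicates) in aplCoA and pplCoA glutamatergic neurons (log2 change 1.18, SE 0.16, adjusted p = 0.00526) and at 41.9 ± 5.56 and 69.9 ± 14.7 CPM in GABAergic neurons (log2 change -0.77, SE 0.14, adjusted p = 0.00521). It passed in opposite directions, and the difference of 1.92 log2 units passed too (SE 0.23, adjusted p = 0.00223). The difference no longer passed without the Slc17a6-rich clusters (0.74, adjusted p = 0.0671), and the GABAergic change missed the threshold with the 2 sub-clusters that were set aside kept in (adjusted p = 0.0515). Gpc4 was at 20.4 ± 3.45 and 38.3 ± 5.62 CPM in glutamatergic neurons (log2 change -0.98, SE 0.15, adjusted p = 0.00618), the same direction as Lrrtm4.

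Of the other partners, Clstn1, a calsyntenin (0.25, adjusted p = 0.0496, edgeR), was higher in glutamatergic neurons of aplCoA. It was just past the threshold and no longer passed under 14 of 18 alternatives, among them the omission of any replicate but pplCoA replicate 1 (adjusted p = 0.0561 to 0.171, edgeR). Lrrc4, a netrin-G ligand (-0.59, adjusted p = 0.0214), and Ntrk3, the neurotrophin receptor that also binds Ptprs (-0.52, adjusted p = 0.0136), were lower. Both were lost without aplCoA replicate 1, pplCoA replicate 2 or pplCoA replicate 3, and Lrrc4 also without aplCoA replicate 2 (adjusted p = 0.0734 to 0.0829 for Lrrc4 and 0.052 to 0.0574 for Ntrk3, edgeR). In GABAergic neurons Gpc6 (-0.51, adjusted p = 0.00568) and Lrrc4 (-0.40, adjusted p = 0.0118) were lower, and Lrrc4 was lost there without aplCoA replicate 1 or pplCoA replicate 2 (adjusted p = 0.0731 and 0.0748). Without the Slc17a6-rich clusters the glutamatergic log2 change of Gpc5 was -0.022 (adjusted p = 0.949), while that of Gpc4 was -0.87 (adjusted p = 0.0200). The count of 9 fell to 4 without aplCoA replicate 1, pplCoA replicate 2 or pplCoA replicate 3, where the share of all genes fell likewise, to 9.14%, 8.30% and 10.6%.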

How the data were processed

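Single-nucleus RNA was measured in 7 libraries (3 replicates a domain). The authors aligned reads with Cell Ranger to mm10 (version 5.0.0 in the submitters' processing notes, 4 in the file headers), introns included, and deposited unfiltered UMI counts per gene and barcode, without normalization. The genes and lists described here were chosen with earlier results of these data known.

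Barcodes with at least 1000 genes (52201) were kept within 5 median absolute deviations of UMIs and 5 interquartile ranges of mitochondrial and ribosomal percentages (50523 left), and 4120 Scrublet doublets (1% per 1000 nuclei) were removed, in place of the study's emptyDrops and scDblFinder. Nuclei were clustered in scanpy 1.11.5 (5000 genes, Pearson residuals, 50 components, 15 neighbours, Leiden resolution 1.0) without the adhesion genes and named by markers. A glutamatergic sub-cluster with GABAergic markers (Dlx6os1 and Gad2) among its leading genes was set aside after the data were seen. So was a GABAergic one with mural markers among them, and 574 nuclei were unnamed in all. Macrophages (263 nuclei) were not used.

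UMIs summed per class and replicate were tested, for genes in at least 10% of nuclei of a domain, by edgeR 4.0.16 (TMM, quasi-likelihood, Benjamini-Hochberg over all genes) in R 4.3.3, with DESeq2 1.42.0 as an alternative. Each SE is the absolute log2 change divided by the square root of the test's F statistic, since edgeR's test gives no SE. P-values measure the spread between tissue pools. Tested on simulated data, the fits recovered 100% of genes changed by 1 log2 unit in either neuron type and 80% in MOLs. Changes under 1 log2 unit, as in most of the genes that passed, were not simulated. Named were all genes past the threshold, Cntnap4, the 6 largest ratios between neuron types each way and the 3 largest partners each way, of which 1 is not reported here. Positions came from GENCODE vM21.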

Additional observations from a re-analysis of the deposited data

Results flagged for a closer look

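Results are listed here because a test of the difference itself (edgeR, domain by neuron type, adjusted p under 0.05) separated the log2 change of glutamatergic from that of GABAergic neurons. The difference of changes was 1.76 log2 units for Cntnap4, 1.57 for Cntnap3, 1.32 for Tenm3, 0.59 for Cntnap2, 0.54 for Cntn5, 0.47 for Lrrtm3 and -0.67 for Lrrtm4. In glutamatergic neurons Slc17a6 was also higher in aplCoA, and in a fit without the clusters rich in it, where Cntnap4 and Cntnap3 could not be tested, Lrrtm4 was the gene that still passed. Slc17a6 stood at 6.52, 4.04 and 2.01 CPM in aplCoA and 1.60, 0.234 and 0.416 CPM in pplCoA GABAergic neurons, and the part of such RNA in the differences was not tested.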

How the results depend on the processing

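Over 33 results named for a gene, 572 alternatives gave 447 values on the same side of the threshold, 121 that no longer passed, 3 that newly passed and 1 that reversed. Fits in which a gene could not be tested are not among the 572. Cntnap4 in glutamatergic neurons and the differences of Cntnap4 and Cntnap3 thus lack the fit without the Slc17a6-rich clusters. The reversal was that of Gpc5 (-0.022) in glutamatergic neurons without the Slc17a6-rich clusters, a setting chosen after seeing the data, under which 4 adhesion genes passed in glutamatergic neurons (10.4% of all genes) and 1 in the difference between neuron types (0.657%). At a threshold of 0.01 with a 1.5-fold change, 3 passed in glutamatergic neurons, 0 in GABAergic neurons, 3 in the difference, and 2 and 1 partners (4.86%, 2.51% and 1.165% of all genes). Without the 10% share, 11 passed in GABAergic neurons, 13 in the difference, 3 in astrocytes and 1 in OPCs (5.93%, 5.24%, 3.07% and 3.16% of all genes). Library 1 alone for aplCoA replicate 1 gave 3 in GABAergic neurons (2.10% of all genes). Naming nuclei by marker UMIs gave 4 in the difference, as did keeping all barcodes (3.36% and 2.98% of all genes, from 5.06%). In astrocytes the likelihood ratio test and DESeq2 each gave 1 (4.64% and 3.85% of all genes, from 0.638%). At halved cluster resolution 1 gene (Cntnap3) was over 2-fold apart at a fixed mix, also without a share of all genes. The causes were not tested.

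Leaving out 1 replicate gave 5 to 16 genes in glutamatergic neurons, 3 to 9 in GABAergic neurons, 2 to 14 in the difference, 0 to 2 in astrocytes, 0 to 1 in OPCs and 0 to 1 in MOLs, where the shares of all genes were 8.30 to 24.4%, 2.79 to 9.85%, 1.117 to 10.45%, 0 to 5.04%, 1.66 to 9.05% and 0.456 to 3.498%. It gave 4 to 12 partners in glutamatergic and 2 to 3 in GABAergic neurons. It also gave 6 to 7 genes over 2-fold apart between neuron types and 0 at a fixed mix of clusters, with no share of all genes beside them. In glutamatergic neurons the lowest counts came without pplCoA replicate 2 or 3 and the highest without pplCoA replicate 1.

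Replicate numbers were shared by the domains, and the labels do not say whether they pair them. The main domain tests left them unpaired. The deviations of same-numbered replicates correlated at 0.09, -0.08 and 0.12 in glutamatergic and -0.01, -0.15 and -0.02 in GABAergic neurons. They correlated at 0.39, 0.24 and 0.08 in astrocytes, 0.22, 0.005 and -0.002 in OPCs and 0.28, 0.01 and 0.04 in MOLs. With 3 replicates a domain, such values cannot settle whether the numbers are pairs. With a replicate block 10 and 6 adhesion genes passed, and 10 and 3 partners (19.5% and 7.63% of all genes), with 0 in astrocytes, OPCs and MOLs, while the share of all genes went from 0.638% to 4.46% in astrocytes, from 6.46% to 9.095% in OPCs and from 2.35% to 7.24% in MOLs. The cerebellins fell under the 10% share and were not tested in the main fits. Whether depth or low expression kept them there was not tested.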

Other observations

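Many adhesion genes are long. Their median span was 168 kb, and 21 of the 47 exceed 300 kb. Over all genes tested in glutamatergic neurons the median log2 change between domains was 0.06 for 4305 genes under 30 kb and -0.09 for 524 genes over 300 kb, of which 19.9% passed as lower and 13.7% as higher in aplCoA (edgeR). In GABAergic neurons these medians were 0.08 and -0.08, and of 505 genes over 300 kb 12.7% passed as lower and 2.77% as higher. Of the 7 adhesion genes that passed as lower in GABAergic neurons, Nrxn3, Tenm2 and Cntnap5c exceed 300 kb, while Lrrtm1 and Flrt3 are under 30 kb, where 9.07% of all genes passed as higher and 4.51% as lower. The part of gene length in those results was not tested.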
